A study of Mus musculus with 15 samples.

Results

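Nfkb1, Nfkb2, Rela, Relb, Nfkbia, Tnfaip3, Bcl3, Ikbke, Birc3 and Icam1 are genes of the NF-κB system, namely its subunits, its inhibitors, a kinase and targets. They were taken by gene symbol from a table of 18931 genes, and all 10 were found. All 10 also passed the filter on low counts, among 15125 genes tested. Messenger RNA came from brain tissue of outbred Kunming mice subjected to occlusion of the middle cerebral artery (MCAO), a stroke model. There were 15 libraries, 3 each from groups labelled sham, vehicle, JA, UA and JU. The labels put every group, sham included, under MCAO mice of the same stock, and the sham group stands for the operation without the occlusion. The study title names jasminoidin, an iridoid glycoside also called geniposide, and ursodeoxycholic acid, a bile acid, as a combination against injury by ischemia and reperfusion. The abbreviations JA, UA and JU are not spelled out in the labels, and JU is not stated there to be the combination. The labels give no age, sex, dose, time after occlusion or brain region. They also do not say whether replicates were separate mice, so p-values reflect the spread between libraries, and that spread may be technical.

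NF-κB is a family of dimeric transcription factors built from subunits that share a DNA-binding domain. In resting cells the dimers are held in the cytoplasm by inhibitors of the IκB family. Signals from receptors for tumour necrosis factor, interleukins or microbial products activate kinases that mark IκB for destruction, and the freed dimers enter the nucleus. Several of the genes they switch on are their own inhibitors, which gives the pathway its negative feedback. In ischemic brain the pathway is known in microglia, endothelium, astrocytes and neurons. The activity of the factor is set by its place in the cell, which messenger RNA levels do not measure.

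The dimers bind a short DNA element, the κB site, and its letters near the start sites of the feedback genes are shown here to place the genes whose levels follow. RefSeq promoter windows of build GRCm38.p6 were matched by symbol to 8 of the 10 genes, with 11 windows in all, and 250 bases before each start site were searched on both strands. The κB consensus, a motif of 10 letters, was found in windows of 3 of the 8 genes, Nfkb2, Nfkbia and Tnfaip3. Among 14781 genes of the table with a window, 5.38% held a match. The Nfkbia window, on the minus strand, holds 1 match, which begins 29 bases before the start site. The window is printed 5′ to 3′, with the match in capitals. The match lies on the strand opposite to the gene, where it reads GGGAATTTCC.
Nfkbia, chr12:55492648-55492897: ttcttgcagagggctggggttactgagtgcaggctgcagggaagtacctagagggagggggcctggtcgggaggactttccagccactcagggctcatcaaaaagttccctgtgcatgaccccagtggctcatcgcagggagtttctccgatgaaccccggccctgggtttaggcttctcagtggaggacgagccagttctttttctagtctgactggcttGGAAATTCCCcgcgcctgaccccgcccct
Shorter stretches around matches at Nfkb2 (plus strand) and Tnfaip3 (minus strand) are printed the same way. Their matches begin 39, 11 and 225 bases before an Nfkb2 start site and 12 and 125 bases before a Tnfaip3 start site. The Tnfaip3 match at 12 bases lies on the strand opposite to the gene. Nfkb2 also held matches on the opposite strand at 38 bases, overlapping the first, and at 236 bases before another start site. These are not printed.
Nfkb2, chr19:46304688-46304717: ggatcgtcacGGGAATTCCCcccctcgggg
Nfkb2, chr19:46304716-46304736: ggggccgaaaGGGGCTTTCCc
Nfkb2, chr19:46305695-46305724: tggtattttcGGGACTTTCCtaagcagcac
Tnfaip3, chr10:19015411-19015432: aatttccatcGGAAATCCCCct
Tnfaip3, chr10:19015516-19015545: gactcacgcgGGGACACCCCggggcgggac
The first Nfkb2 match reads the same on both strands. No match lay in these windows of Rela, Bcl3, Ikbke, Birc3 or Icam1, which says only that these letters are not there. A match is a description of sequence, not evidence of binding.

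Total counts ran from 18346180 to 20447465 per library, with 16498 to 17052 genes detected. Levels are CPM, or counts relative to library size after TMM scaling, and 3 counts, the floor of detection, equal 0.147 to 0.1635 CPM. JU replicate 1 stood apart: the NF-κB genes were highest there in 10 of 10 cases, and vehicle replicate 2 was second in 10 of 10. The share of all genes with that order is not given here, so these counts describe the libraries and not the 10 genes. All 15 libraries share 1 estimate of spread, so JU replicate 1 also touches comparisons it is not part of. Counts are therefore given with it and without it. Each library was left out in turn, and this omission was given its place in the text after its values had been seen. Marker levels of several brain cell types moved with the same libraries. Summed over 10 genes of microglia and macrophages, levels were 341.6 to 382.5 CPM in sham and 1327 to 2929 in vehicle. In JA that sum was 392.9 to 1136 CPM, in UA 482.4 to 839.8, and in JU 455.5 to 4206, with the highest value in JU replicate 1. For 6 neuron markers the sum lay between 7366 and 7502 CPM in the sham libraries, between 4179 and 6018 in vehicle, and at 2716 in JU replicate 1. The sum of 6 astrocyte markers ran from 3886 to 4060 CPM in sham, 4296 to 6006 in vehicle, 3957 to 5021 in JA and 4215 to 5007 in UA, and reached 8148 in JU replicate 1. Gfap, the intermediate filament of reactive astrocytes, averaged 191.1 ± 25.4 CPM in sham and 1683 ± 795.1 in vehicle (SD, n = 3), and stood at 4687 in JU replicate 1. Not all 6 astrocyte markers rose. Slc1a2 averaged 2610 ± 27.2 CPM in sham and 2061 ± 61.2 in vehicle, and Slc1a3 671 ± 25.7 and 668 ± 37.8. Means of Aqp4, Aldh1l1 and Gja1 were higher in vehicle than in sham. For 7 endothelial markers the sum lay between 209.2 and 238.3 CPM in the sham libraries and between 219.7 and 291.3 in vehicle, and at 420.7 in JU replicate 1. Means of Cldn5, Pecam1, Cdh5 and Tek were higher in vehicle than in sham. Flt1 averaged 73.0 CPM in sham and 66.9 in vehicle, Kdr 27.2 and 26.7, and Ly6c1 30.4 and 31.4. The sum of 5 oligodendrocyte markers ran from 6217 to 6456 CPM in sham and 5876 to 7249 in vehicle, and stood at 5981 in JU replicate 1. Sums for neutrophils and T cells were low in every library, at 0.710 to 5.81 CPM over 5 neutrophil markers and 0.0526 to 0.888 over 4 T cell markers. Ly6g, Mpo and Cd3e were among these markers at 0 counts in several libraries. The T cell sum, on few counts, was 0.0526 to 0.260 CPM in sham and 0.478 to 0.785 in vehicle. A sum of 4 B cell markers was 0.729 to 0.939 CPM in sham and 1.34 to 2.50 in vehicle. The part of the cell types in the levels below was not tested, and in bulk tissue a change in the number of cells cannot be told apart from a change in RNA per cell.

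Nfkb1 and Rela encode the subunits of the classic NF-κB dimer. Nfkb1 (Entrez 18033; chromosome 3, 135584655 to 135691547, minus strand, GRCm38) stood at 16.2, 17.2 and 16.5 CPM in sham replicates 1, 2 and 3, and at 25.4, 42.0 and 34.5 in vehicle. It stood at 25.1, 18.8 and 17.4 CPM in JA, at 16.97, 20.9 and 17.3 in UA, and at 64.7, 17.9 and 21.99 in JU. All vehicle libraries lay above all sham, JA and UA libraries, while JU spanned the range. Rela (Entrez 19697; chromosome 19, 5637483 to 5648130, plus strand) stood at 20.4, 18.6 and 16.4 CPM in sham and 27.3, 37.4 and 32.7 in vehicle. Its level was 24.4, 22.1 and 18.5 CPM in JA, 22.1, 19.2 and 21.6 in UA, and 55.2, 22.4 and 24.4 in JU. As with Nfkb1, vehicle did not overlap sham, JA or UA. In vehicle against sham the log2 fold change was 1.03 ± 0.39 (SE, n = 3 per group) for Nfkb1, with an adjusted p of 0.114 in edgeR's quasi-likelihood test. For Rela it was 0.81 ± 0.28, with an adjusted p of 0.0931 in the same edgeR test.

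Nfkb2 and Relb encode the subunits of the alternative NF-κB dimer, and both genes are themselves known NF-κB targets. Nfkb2 (Entrez 18034; chromosome 19, 46304320 to 46312385, plus strand) stood at 2.16, 2.08 and 2.03 CPM in sham and at 4.86, 10.6 and 7.88 in vehicle. Its JA levels were 4.93, 2.67 and 2.26 CPM, its UA levels 3.54, 4.39 and 3.69, and its JU levels 20.3, 2.90 and 5.23. Vehicle lay above sham and UA without overlap, but JA replicate 1 exceeded the lowest vehicle library. Relb (Entrez 19698; chromosome 7, 19606217 to 19629438, minus strand) stood at 4.31, 4.43 and 4.59 CPM in sham and at 6.14, 9.07 and 8.70 in vehicle. In JA it was at 4.63, 6.68 and 5.63 CPM, in UA at 5.53, 5.92 and 4.71, and in JU at 11.5, 5.95 and 5.97. Vehicle lay above sham and UA for Relb too, and JA replicate 2 lay within the vehicle range. In JU, Relb in replicate 1 was 1.93 times the mean of the other two, against 4.99 times for Nfkb2. The log2 fold change between vehicle and sham was 1.89 ± 0.59 (SE) for Nfkb2, with adjusted p = 0.0764 in edgeR, and 0.84 ± 0.26 for Relb, with adjusted p = 0.0749. An exon of Nfkb2 overlaps Psd on the opposite strand, and the strand setting of the counting is not given, so reads of the pair could have been shared. Psd stood at 399.1 ± 18.96 CPM in sham, 373.3 ± 48.5 in vehicle (SD, n = 3) and 184.5 in JU replicate 1, where Nfkb2 was highest.

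Nfkbia encodes IκB alpha, the inhibitor that is resynthesized after each round of activation. Nfkbia (Entrez 18035; chromosome 12, 55489410 to 55492647, minus strand) stood at 14.4, 14.4 and 14.6 CPM in sham and at 17.8, 36.5 and 19.1 in vehicle. It stood at 26.4, 16.7 and 16.2 CPM in JA, 14.6, 15.2 and 15.7 in UA, and 49.8, 20.7 and 17.5 in JU. Vehicle lay above sham and UA, while JA replicate 1 and JU replicate 2 exceeded vehicle replicates 1 and 3. Tnfaip3, a ubiquitin-editing enzyme that shuts down signalling upstream of IκB (Entrez 21929; chromosome 10, 19000910 to 19015657, minus strand), stood at 5.21, 7.14 and 6.57 CPM in sham and 9.87, 15.2 and 10.2 in vehicle. Its levels were 11.2, 9.15 and 8.29 CPM in JA, 6.86, 8.93 and 8.20 in UA, and 28.4, 8.30 and 8.09 in JU. Here too vehicle lay above sham and UA, and JA replicate 1 lay within the vehicle range. Bcl3 is a nuclear member of the IκB family that works with homodimers of the Nfkb1 and Nfkb2 products. Bcl3 (Entrez 12051; chromosome 7, 19808462 to 19822770, minus strand) stood at 0.316, 0.573 and 0.469 CPM in sham and 1.79, 4.56 and 3.06 in vehicle. It stood at 1.41, 0.103 and 0.276 CPM in JA, 0.221, 1.04 and 0.615 in UA, and 13.4, 0.109 and 0.937 in JU. Bcl3 rested on 6 to 11 counts per library in sham, and its 2 counts in each of JA replicate 2 and JU replicate 2 lie below the floor of 3. The log2 fold change between vehicle and sham was 0.76 ± 0.37 (SE) for Nfkbia, 0.90 ± 0.41 for Tnfaip3 and 2.78 ± 1.29 for Bcl3. Their adjusted p-values in edgeR were 0.190, 0.166 and 0.173.

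Ikbke encodes IKK epsilon, an IKK-related kinase that also acts in interferon signalling. Ikbke (Entrez 56489; chromosome 1, 131254343 to 131279606, minus strand) stood at 0.579, 1.41 and 0.886 CPM in sham and at 4.55, 7.90 and 3.01 in vehicle. Levels were 3.57, 0.925 and 0.773 CPM in JA, 0.995, 1.73 and 0.820 in UA, and 21.7, 0.656 and 1.23 in JU. The vehicle libraries lay above all sham and UA libraries, and JA replicate 1 lay inside the vehicle range. The difference of vehicle from sham was 2.42 ± 1.10 on the log2 scale (SE), with adjusted p = 0.166 in edgeR.

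Birc3 encodes an inhibitor of apoptosis that acts as a ubiquitin ligase at tumour necrosis factor receptors. Birc3 (Entrez 11796; chromosome 9, 7848699 to 7873186, minus strand) stood at 1.999, 1.30 and 1.51 CPM in sham and 3.79, 6.18 and 3.92 in vehicle. It stood at 3.83, 2.26 and 2.04 CPM in JA, 2.16, 2.42 and 1.84 in UA, and 12.1, 1.64 and 2.17 in JU. Icam1 encodes the adhesion molecule to which leukocytes attach on activated endothelium, and microglia and astrocytes can express it. Icam1 (Entrez 15894; chromosome 9, 21015985 to 21028817, plus strand) stood at 3.05, 3.39 and 3.13 CPM in sham and 9.11, 26.6 and 11.7 in vehicle. Its levels were 8.26, 2.62 and 3.76 CPM in JA, 3.54, 5.87 and 4.46 in UA, and 40.5, 3.33 and 8.63 in JU. Vehicle lay above sham, JA and UA without overlap for Icam1, and above sham and UA for Birc3. In vehicle against sham Birc3 differed by 1.53 ± 0.62 (SE, log2 scale; adjusted p = 0.134 in edgeR) and Icam1 by 2.31 ± 0.76 (adjusted p = 0.0875). Bcl3, Ikbke and Icam1 have exons that overlap predicted genes on the opposite strand, none of which is in the table.

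**Figure D1:**
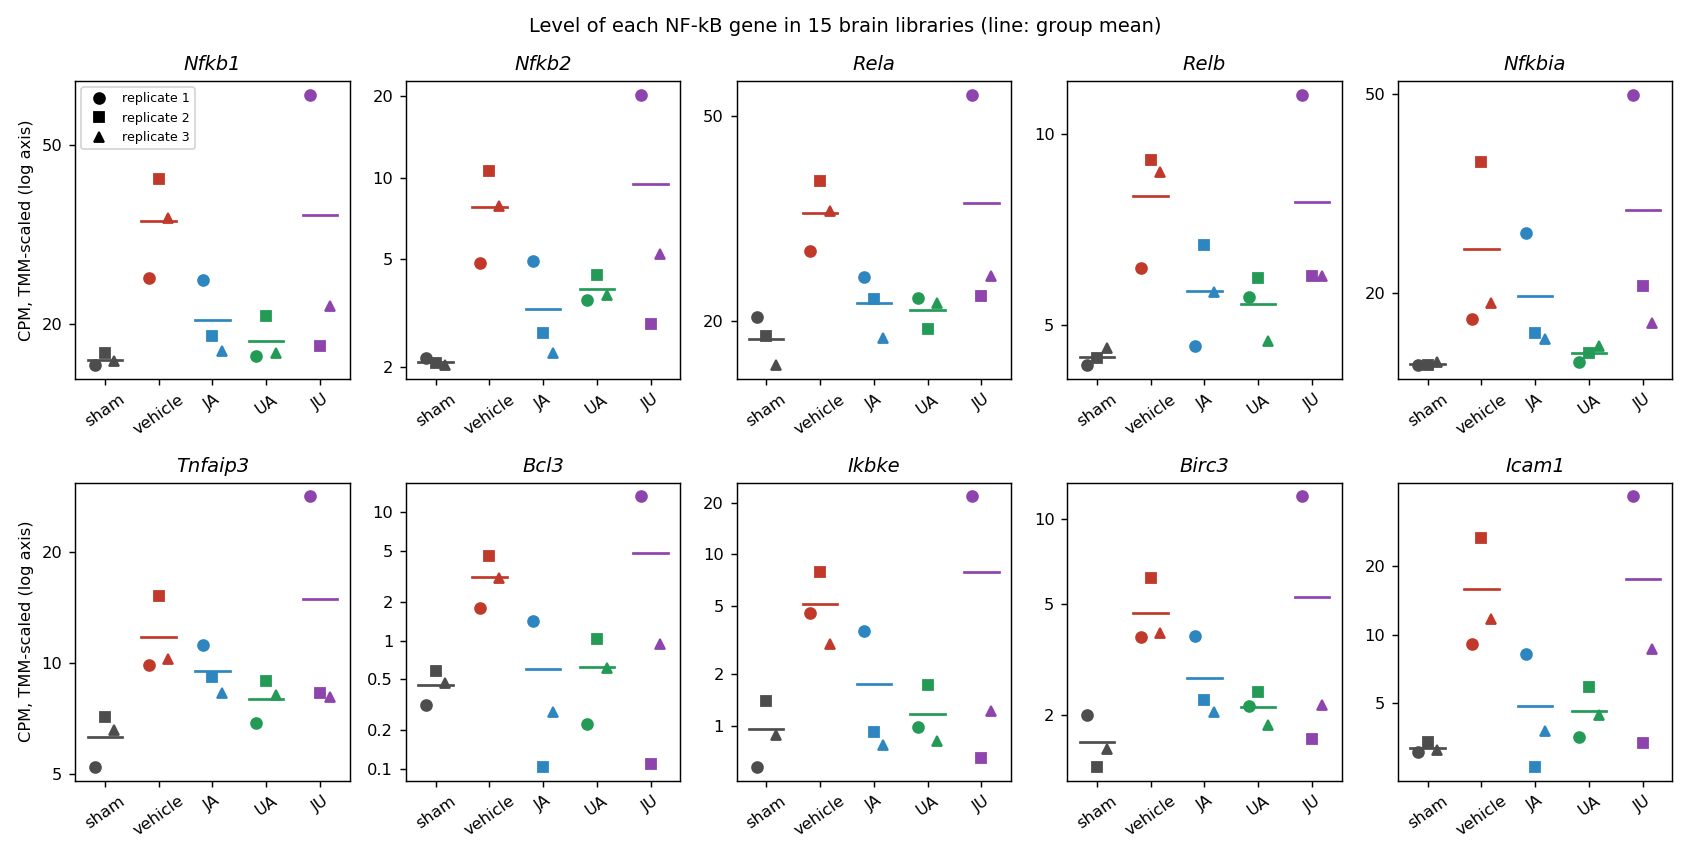
Level of each of the 10 NF-κB genes in every library, in TMM-scaled CPM on a log axis. Points are libraries, with the shape giving the replicate number, and lines are group means of 3. JU replicate 1 is the highest point in all 10 panels and vehicle replicate 2 the second highest.

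What occlusion changed is the question of vehicle against sham. Vehicle libraries lay above sham libraries without overlap for 10 of 10 NF-κB genes, where 24.5% of all tested genes did so. The fold changes were positive for 10 of 10, with a median of 1.28 on the log2 scale, against 0.0048 over all genes tested. None of the 10 passed the threshold of 0.05 on adjusted p in edgeR with all 15 libraries, where 5.02% of all genes passed in either direction and 0.787% as higher in vehicle. At an unadjusted p under 0.05 there were 8 of 10, against 14.5% of all genes as higher. DESeq2 called 5 of 10 higher, namely Nfkb1, Nfkb2, Rela, Relb and Icam1, where 7.19% of all genes were higher. Voom of limma called 0, where 4.53% of all genes passed.

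With JU replicate 1 left out, a library of neither group, all 10 rose in vehicle by edgeR, with adjusted p from 0.0018 to 0.0359. In that fit 17% of all genes rose and 33.9% passed in either direction. The standard errors shrank more than the fold changes moved. For Nfkb1 the log2 fold change was 1.02 ± 0.18 (SE; adjusted p = 0.0022 in edgeR) and for Icam1 2.30 ± 0.51 (adjusted p = 0.0067). Nfkbia, at 0.75 ± 0.25, had the largest adjusted p of the 10. With a GC correction added to that omission 9 of 10 rose, all but Nfkbia (adjusted p = 0.0650 in edgeR), where 15.4% of all genes did. With vehicle replicate 2 left out instead, 0 of the 10 were called, where 0.544% of all genes passed, and the log2 fold change of Nfkbia was 0.35.

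The JA, UA and JU comparisons use the same 3 vehicle libraries, which also enter the comparison with sham, so their results are not independent of each other. JA against vehicle asks whether that treatment changed the levels seen after occlusion. All 10 genes had negative fold changes, with a median of -0.75 on the log2 scale against -0.0071 over all genes tested. JA lay below vehicle without overlap for 4 of 10, Nfkb1, Rela, Bcl3 and Icam1, while 15.7% of all tested genes did so. None of the 10 passed in edgeR with all libraries, where 1.56% of all genes passed in either direction and 0.0727% as lower in JA. At an unadjusted p under 0.05 there was 1, against 7.22% of all genes as lower, namely Icam1 (log2 fold change -1.69 ± 0.74 SE, adjusted p = 0.250 in edgeR). DESeq2 gave adjusted p-values for 7 of the 10 and called 0, where 7.83% of all genes passed, and voom called 0, where 1.38% did.

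JA replicate 1 stood nearer to vehicle than the other JA libraries did. It lay below the lowest vehicle library for 5 of the 10 genes, against 9 for JA replicate 2 and 10 for JA replicate 3. The shares of all genes are not given here, so these counts describe the libraries and not the 10 genes. In JA replicate 1 the microglia and macrophage marker sum of 1136 CPM was also the highest of JA, where the others stood at 431.6 and 392.9. Without JU replicate 1, 4 of the 10 fell in JA by edgeR, where 7.76% of all genes fell. They were Nfkb1 (-0.73 ± 0.18 SE, adjusted p = 0.0175), Nfkb2 (-1.23 ± 0.33, adjusted p = 0.0252), Rela (-0.58 ± 0.13, adjusted p = 0.0129) and Icam1 (-1.69 ± 0.49, adjusted p = 0.0370). All 4 calls were lost when a GC correction was added to that omission, where 0 of 10 passed and 0.00661% of all genes fell. Their adjusted p-values in edgeR were then 0.0558 for Nfkb1, 0.0719 for Nfkb2, 0.0646 for Rela and 0.0788 for Icam1. Bcl3 stood at -2.37 ± 0.80, with adjusted p = 0.0545. The 2 feedback inhibitors Nfkbia and Tnfaip3 were at -0.30 ± 0.25 and -0.30 ± 0.19, with adjusted p of 0.393 and 0.268 in that edgeR fit. With both JU replicate 1 and JA replicate 1 left out, an alternative added after seeing the data, 7 of 10 were called lower, where 14.8% of all genes were.

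UA libraries lay below vehicle libraries without overlap for 10 of 10 NF-κB genes, and for 22.2% of all tested genes. All 10 fold changes were negative, with a median of -0.95 on the log2 scale against -0.014 over all genes. In edgeR with all libraries 0 of 10 passed, where 3.47% of all genes passed in either direction and 0.35% as lower in UA. At an unadjusted p under 0.05 there were 4, Nfkb1, Rela, Relb and Icam1, against 11% of all genes as lower. DESeq2, with adjusted p-values for 9 of the 10, called 0 where 11.6% of all genes passed, and voom called 0 where 3.34% did. A fit of the UA and vehicle libraries alone called 6 lower, where 6.85% of all genes were. In the fit without JU replicate 1, 9 of 10 fell in UA by edgeR, where 13.4% of all genes fell. Nfkb1 then stood at -0.88 ± 0.18 (SE, log2 scale; adjusted p = 0.0060) and Rela at -0.62 ± 0.13 (adjusted p = 0.0067). Ikbke stood at -2.11 ± 0.58 (adjusted p = 0.0206), Icam1 at -1.76 ± 0.50 (adjusted p = 0.0236) and Birc3 at -1.10 ± 0.30 (adjusted p = 0.0182). Nfkb2, Relb, Tnfaip3 and Bcl3 had adjusted p-values of 0.0393, 0.0388, 0.0469 and 0.0464 in edgeR. Nfkbia, the exception, stood at -0.68 ± 0.25 with an adjusted p of 0.0591. With the GC correction added, 5 of 10 fell, where 7.55% of all genes did. Nfkb1, Rela, Tnfaip3, Ikbke and Birc3 passed there, and the calls of Nfkb2, Relb, Bcl3 and Icam1 were lost (adjusted p from 0.0514 for Icam1 to 0.122 for Relb in edgeR).

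UA levels did not all lie in the sham range. UA replicates 1, 2 and 3 lay above the highest sham library for 5, 9 and 8 of the 10 genes. The shares of all genes are not given here, so these counts do not set the 10 genes apart. Nfkb2 was the clearest case, with all 3 UA libraries at 3.54 CPM or more where no sham library exceeded 2.16. Nfkbia in UA, at 15.2 ± 0.565 CPM (SD, n = 3), lay within 1 CPM of its sham mean of 14.4 ± 0.133. UA was not tested against sham.

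JU against vehicle gave no calls in the fit of all libraries. Fold changes were positive for 9 of 10 and negative for 1, Relb, with a median of 0.23 on the log2 scale against 0.031 over all genes. The adjusted p of all 10 was 1 in edgeR, no gene had an unadjusted p under 0.05, and DESeq2 and voom called 0 of 10. Of all genes tested 0% passed in each of these 3 analyses. JU and vehicle overlapped for all 10, while 2.35% of all genes lay without overlap above vehicle and 1.89% below it.

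Among the JU libraries, replicate 1 stood apart from replicates 2 and 3. JU replicate 1 exceeded every vehicle library for 10 of 10 genes, while JU replicates 2 and 3 each lay below the lowest vehicle library for 9 of 10. The exceptions were Nfkbia in replicate 2 and Nfkb2 in replicate 3. The shares of all genes with such positions are not given here, so these counts describe the libraries and not the 10 genes. JU replicate 1 stood at 25.6 times the mean of the other JU libraries for Bcl3, 23.0 times for Ikbke, 6.78 times for Icam1 and 6.35 times for Birc3. For Rela the same ratio was 2.36, for Nfkbia 2.61 and for Nfkb1 3.24. The microglia and macrophage marker sum was 4206 CPM in that library against 455.5 and 1095 in the other JU libraries. Without JU replicate 1 all 10 fold changes were negative, with a median of -0.84, and 8 of 10 had an unadjusted p under 0.05, against 12.3% of all genes as lower. None passed the adjusted threshold in edgeR (adjusted p from 0.186 to 0.454), in a fit where 0.00656% of all genes passed. The largest of these changes were -2.54 ± 0.94 for Bcl3 and -2.43 ± 0.70 for Ikbke (SE, log2 scale).

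**Figure D2:**
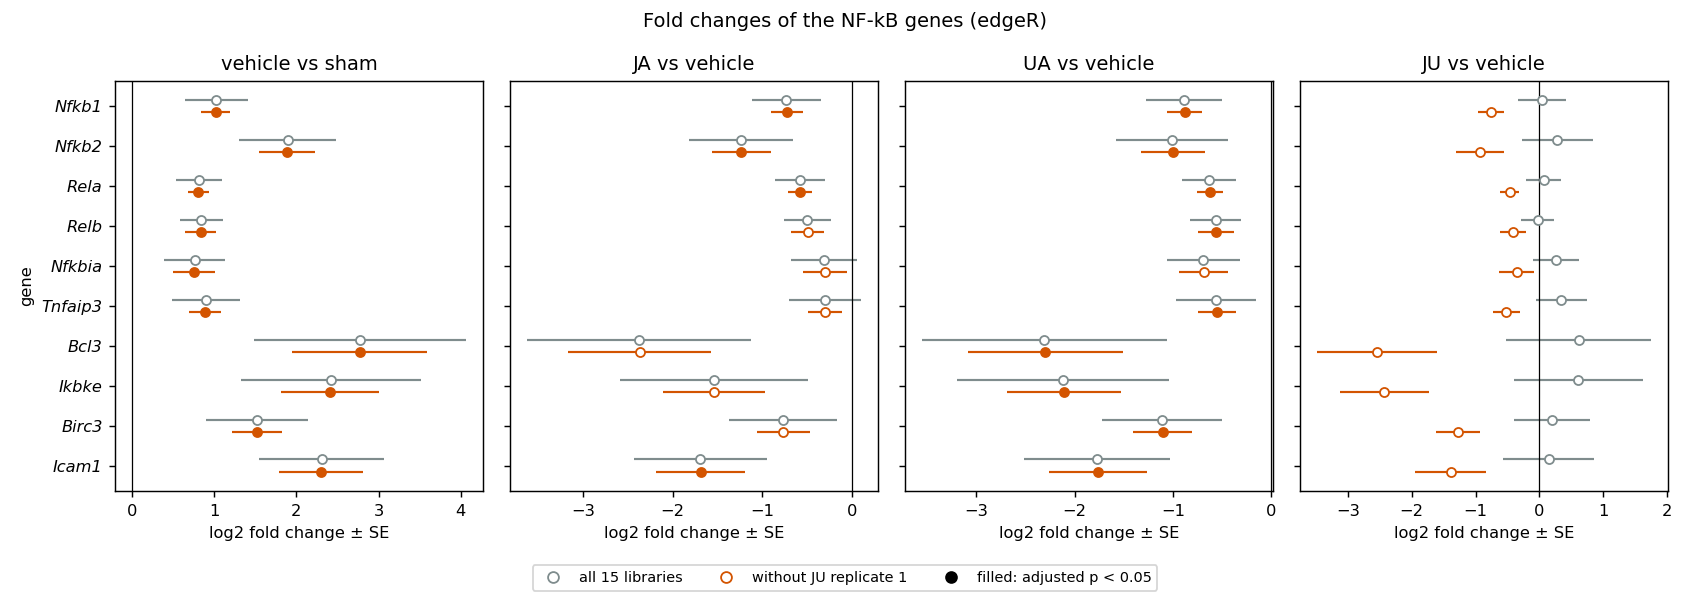
Log2 fold change with its standard error for each NF-κB gene in 4 comparisons, from edgeR with all 15 libraries (grey) and without JU replicate 1 (orange), with filled points where adjusted p is under 0.05. No grey point is filled, while 10 orange points are filled in vehicle against sham, 4 in JA, 9 in UA and 0 in JU.

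Direct comparisons of the treated groups ask whether JU differs from JA or UA. Against JA, all 10 fold changes of JU were positive, from 0.47 for Relb to 2.99 for Bcl3, with 0 of 10 called in edgeR, and 0% of all genes called. At an unadjusted p under 0.05 there were 4, against 10.6% of all genes as higher. Without JU replicate 1 they lay between -0.89 for Ikbke and 0.31 for Nfkb2, with 4 positive and 6 negative. Against UA, JU was higher by 0.54 for Relb to 2.92 for Bcl3, and 0 were called, where 1.08% of all genes passed. At an unadjusted p under 0.05 there were 8 of 10, against 15.5% of all genes as higher. DESeq2 called 0 of 10 in both comparisons, where 4.42% of all genes passed against JA and 10.8% against UA. Voom also called 0 of 10, where 0% and 0.569% passed. Without JU replicate 1 the differences from UA lay between -0.32 for Ikbke and 0.37 for Icam1. Leaving out JU replicate 2 instead gave 7 of 10 higher in JU than in UA, where 11.7% of all genes were higher. JU lay above UA without overlap for 3 of the 10 genes, Rela, Relb and Nfkbia, and 9.77% of all genes did so.

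The size of the response differed widely between the 10 genes. In vehicle the mean was 6.93 times the sham mean for Bcl3, 5.38 times for Ikbke, 4.96 times for Icam1, 3.72 times for Nfkb2 and 2.88 times for Birc3. It was 2.04 times for Nfkb1, 1.87 for Tnfaip3, 1.79 for Relb, 1.76 for Rela and 1.70 for Nfkbia. Within each of these sets of 5, the log2 fold changes of neighbours in the order differ by less than 1 standard error. Birc3 (1.53 ± 0.62) and Nfkb1 (1.03 ± 0.39), at the border of the sets, differ by less than the standard error of Birc3. These errors treat each gene alone, although all 10 were measured in the same libraries. Within vehicle replicates 1, 2 and 3 the ratio to the sham mean was 2.36, 3.85 and 2.44 for Birc3. For Nfkb1 it was 1.52, 2.52 and 2.07, lower than Birc3 in each library. Differences between genes were not tested, so the order is a description. In JU replicate 1 the ratios to the sham mean were 29.5 for Bcl3, 22.7 for Ikbke, 12.7 for Icam1, 9.69 for Nfkb2 and 7.53 for Birc3. They were 4.51 for Tnfaip3, 3.88 for Nfkb1, 3.45 for Nfkbia, 2.99 for Rela and 2.59 for Relb. The microglia and macrophage marker sum was 5.52 times its sham mean in vehicle, which is above 9 of the 10 genes and below Bcl3. That sum joins markers that changed by unlike amounts. P2ry12 averaged 67.7 CPM in sham and 126.2 in vehicle, and Cd68 averaged 10.6 and 204.3. The place of the 10 genes relative to such markers therefore depends on the marker used.

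**Figure D3:**
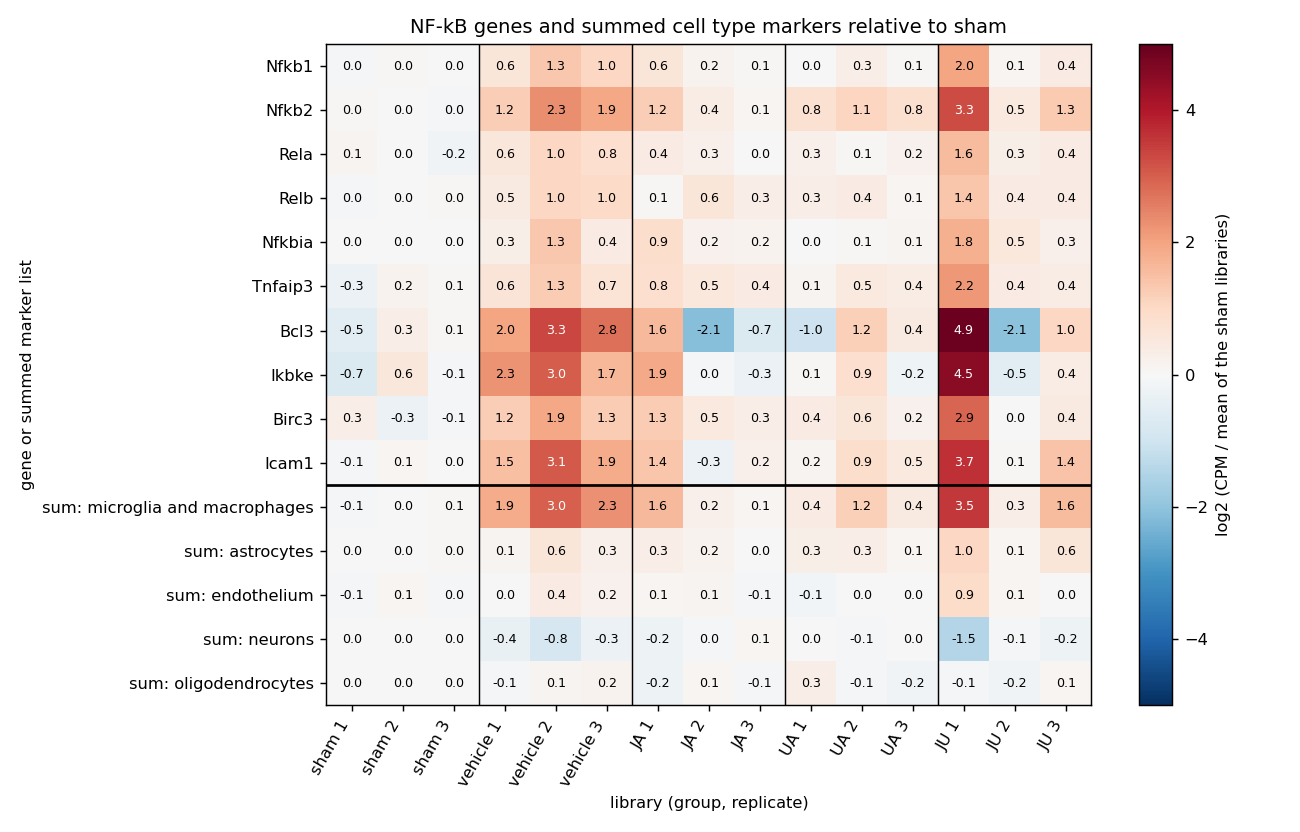
Log2 ratio of each library to the sham mean for the 10 NF-κB genes (upper rows) and for summed markers of 5 cell types (lower rows), with red above and blue below sham. JU replicate 1 is the darkest column, vehicle replicate 2 comes next, and the microglia and macrophage sum is high in the same libraries while the neuron sum is lowest in JU replicate 1.

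Levels of different genes can be compared only per length, for which the deposited FPKM values (fragments scaled by transcript length and depth) were used. In sham, Nfkbia stood at 9.06 ± 0.0980 FPKM, Rela at 6.37 ± 0.677 and Nfkb1 at 3.99 ± 0.136 (SD, n = 3). These 3 did not overlap with each other. Tnfaip3 at 1.31 ± 0.209 and Icam1 at 1.23 ± 0.0697 FPKM came next and did not differ beyond their spread, and Relb stood at 0.714 ± 0.0237. Birc3, Bcl3, Ikbke and Nfkb2 lay at 0.361 ± 0.0794, 0.244 ± 0.0704, 0.227 ± 0.0998 and 0.189 ± 0.0051 FPKM, and the last 3 were within their spread. The length implied by the counts and the FPKM of Nfkb2 was 10990 bases, 2.86 times its longest GENCODE transcript. For Relb and Birc3 it was 1.88 and 1.51 times, and for Ikbke and Tnfaip3 0.71 and 0.77 times. The places of Nfkb2, Relb, Birc3, Ikbke and Tnfaip3 in the order are therefore uncertain.

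Profiles over the 15 libraries were compared after centring each gene on its own mean log2 CPM, as a description with no test. Among the 10, Nfkb1 and Rela were closest, with a root mean square difference of 0.19 on the log2 scale, followed by Nfkbia and Tnfaip3 at 0.20. Relb and Bcl3 were farthest apart, at 1.40. The nearest genes outside the set came closer still, but each was picked from far more candidates than the set holds. A smaller distance follows from that alone, so it is not compared with the distances within the set. Lmf2, a lipase maturation factor, lay 0.092 from Rela, and St6gal1, a sialyltransferase, 0.096 from Nfkb1. Rxra, a nuclear receptor, lay 0.12 from Nfkbia, Plekhm1 0.14 from Tnfaip3 and Pak4, a kinase, 0.14 from Relb. Icam1 was nearest to Clic1 at 0.17, Birc3 to Crtap at 0.18 and Nfkb2 to Pald1 at 0.20. Ikbke lay 0.30 from Nlrc3, and Bcl3 0.45 from Ccnb2, a cyclin of dividing cells. Bcl3 and Ikbke, which varied most between libraries, had the most distant neighbours.

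Of 65 other genes of the pathway, all were in the table and 60 were tested. With all libraries, edgeR called 0 higher and 2 lower in vehicle than in sham, where 4.24% of all genes were lower, and 23 had an unadjusted p under 0.05, against 29.3% of all genes. DESeq2 called 8 higher, where 7.19% of all genes were, and 7 lower. Voom called 2 lower, where 4.53% of all genes passed in either direction. The 2 that edgeR called were the inhibitor of apoptosis genes Xiap and Birc2, relatives of Birc3. Xiap stood at 119.6, 132.1 and 134.8 CPM in sham and 100.6, 97.7 and 94.6 in vehicle, a log2 fold change of -0.40 ± 0.073 (SE, adjusted p = 0.0137 in edgeR). Birc2 stood at 33.1, 34.4 and 34.4 CPM in sham and 28.6, 25.7 and 22.6 in vehicle, a log2 fold change of -0.41 ± 0.088 (adjusted p = 0.0237). In the same fit Xiap, and no other of the 60, was called in JA and in UA against vehicle. It was higher by 0.38 ± 0.073 in JA (adjusted p = 0.0304 in edgeR) and by 0.36 ± 0.073 in UA (adjusted p = 0.0253), where 1.49% and 3.12% of all genes were higher. Its JU levels of 100.2, 105.2 and 96.8 CPM lay near vehicle and below every JA and UA library. With a correction for GC content 0 of the 60 were called in these 3 comparisons. The calls of vehicle against sham were also lost without sham replicate 2, sham replicate 3 or vehicle replicate 2, where 0 of the 60 passed, and 1 of 60 passed without vehicle replicate 3. In UA 0 of 60 passed without vehicle replicate 1, vehicle replicate 2 or any 1 UA library. In JA 0 of 60 passed without any 1 vehicle or JA library, without sham replicate 2 or 3, and without UA replicate 2 or 3.

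The lists are described with JU replicate 1 left out as well, by edgeR. In that fit 17% of all genes rose and 16.9% fell in vehicle against sham, 11.3% rose and 7.76% fell in JA against vehicle, and 14.8% rose and 13.4% fell in UA against vehicle. Over the 60 genes it called 23 higher and 8 lower in vehicle than in sham, 6 higher and 7 lower in JA than in vehicle, and 6 higher and 19 lower in UA than in vehicle. With the GC correction added the counts were 22 higher and 1 lower in vehicle, where 15.4% and 9.05% of all genes were. They were 0 and 0 in JA, and 0 higher and 9 lower in UA, where 7.55% of all genes were lower. Cyld was the 1 lower in vehicle. Xiap and Birc2 then had adjusted p-values of 0.869 and 0.120 in vehicle against sham.

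Receptors and their adaptors were the list with the largest median difference between vehicle and sham. Of 13 tested, 12 were positive, and the list median was 1.17 on the log2 scale, and 10 lay above sham without overlap, where 24.5% of all genes did. Tnfrsf1a, the main receptor for tumour necrosis factor, stood at 13.6, 12.7 and 13.9 CPM in sham, 32.7, 76.7 and 39.1 in vehicle, and 148.2 in JU replicate 1. Its log2 fold change was 1.89 ± 0.70 (SE, adjusted p = 0.110 in edgeR). Tnfrsf1b, the second receptor for that cytokine, went from 3.76 ± 0.131 to 20.3 ± 14.6 CPM (SD, n = 3), Ltbr from 8.73 ± 0.902 to 24.6 ± 9.94 and Irak4 from 1.41 to 4.61 on average. In edgeR with all libraries 0 of the 13 passed, with 6 at an unadjusted p under 0.05, against 29.3% of all genes. When JU replicate 1 was left out, 8 of the 13 rose by edgeR, where 17% of all genes did, among them Tnfrsf1a (adjusted p = 0.0076), Ltbr (adjusted p = 0.0058), Myd88 (adjusted p = 0.0058) and Irak4 (adjusted p = 0.0082). In that fit 3 of the 13 fell in JA and 8 fell in UA against vehicle, where 7.76% and 13.4% of all genes fell. With the GC correction 0 fell in JA and 4 in UA.

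The kinases showed no common direction between vehicle and sham, with 5 of 10 positive and a median of 0.035. In the fit without JU replicate 1 Map3k14, the kinase that starts processing of the Nfkb2 product, rose by 1.07 ± 0.25 (SE, log2 scale; adjusted p = 0.0073 in edgeR), from 4.51 ± 0.387 to 9.55 ± 3.45 CPM. In the same fit Tab3, Tbk1 and Ikbkg fell, with log2 fold changes of -0.46, -0.24 and -0.22. These 3 calls were lost with the GC correction (adjusted p = 0.132, 0.304 and 0.697 in edgeR). In the list of Rel, the remaining subunit gene, and further IκB-type or IκB-binding inhibitors, 6 of 7 were positive, with a median of 0.53. Of these 7, 3 rose and 1 fell without JU replicate 1. Nfkbiz, a nuclear IκB, rose by 1.03 ± 0.25 (adjusted p = 0.0090), and Nkiras1 fell by 0.42 (adjusted p = 0.0315), a call lost with the GC correction (adjusted p = 0.379). Of 17 tested ubiquitin enzymes and adaptors, 6 rose and 3 fell in that fit, the latter a share near the 16.9% of all genes that fell. Ripk1, the kinase at the tumour necrosis factor receptor, rose by 1.09 ± 0.30 (adjusted p = 0.0152), while Cyld, a deubiquitinase that restrains the pathway, fell by 0.67 ± 0.16 (adjusted p = 0.0075).

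Of 17 other targets 13 were tested, and 11 of these had a positive fold change between vehicle and sham, with a median of 0.74. Of the 13, 5 rose and 1, Sod2, fell when JU replicate 1 was left out, where 17% of all genes rose and 16.9% fell. Zc3h12a, an endonuclease that degrades inflammatory messenger RNA, went from 0.697 to 3.60 CPM on average (adjusted p = 0.0126 in edgeR), and Ier3 from 6.83 to 11.4 (adjusted p = 0.0047). Sod2, mitochondrial superoxide dismutase, went from 169.9 ± 8.21 CPM in sham to 123.9 ± 15.7 in vehicle (SD, n = 3, with adjusted p = 0.0035 in edgeR and 0.0844 with the GC correction). Tnf, chosen after its values were seen, stood at 1.21 ± 0.0653 CPM in vehicle and 0.117 ± 0.104 in UA (SD, n = 3), and in sham at no more than 1 count per library. Its JA and JU levels and a test are not given here, so these values do not set UA apart from JA or JU. In JU against vehicle the fit without JU replicate 1 called 0 of the 60, with 20 at an unadjusted p under 0.05, against 22.1% of all genes. With all libraries edgeR called 0 of 60 there, with 1 at an unadjusted p under 0.05, and DESeq2 and voom called 0.

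**Figure D4:**
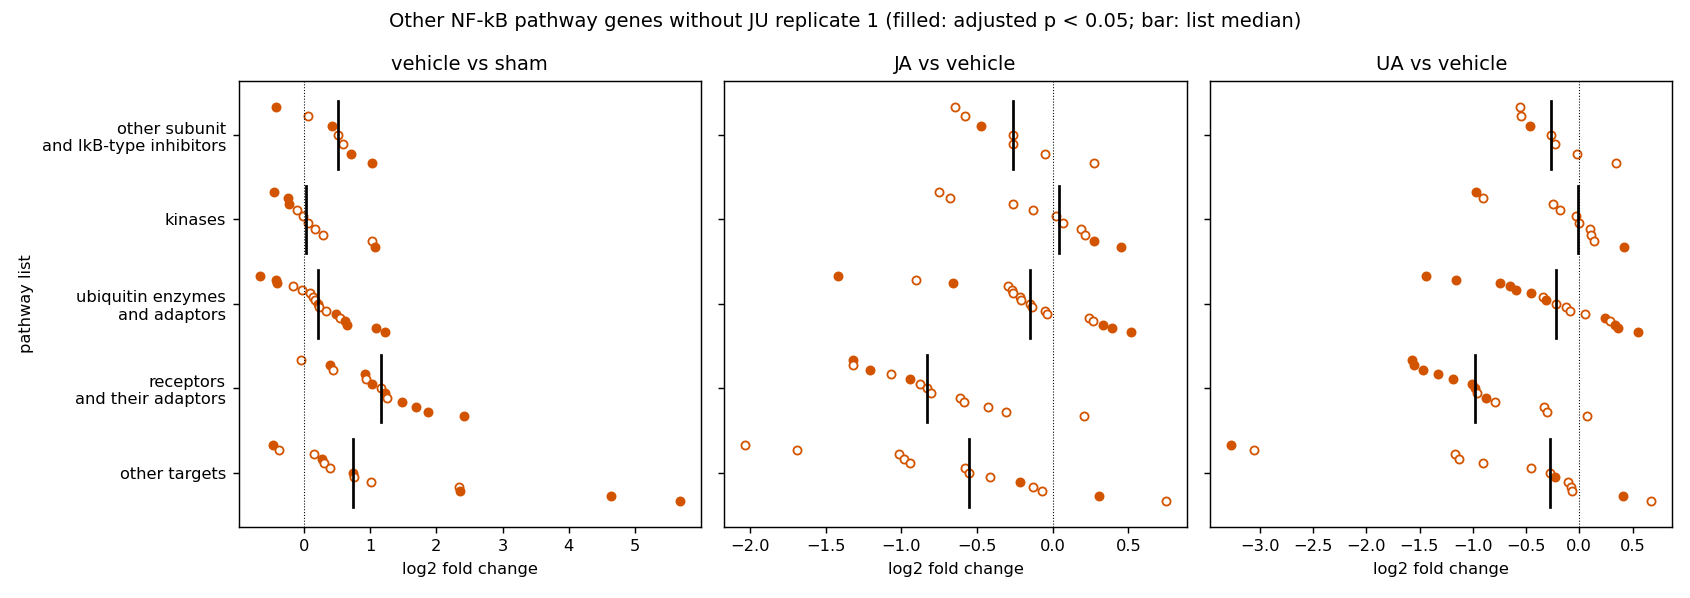
Log2 fold changes of the 60 other tested pathway genes in 3 comparisons, by list, from edgeR without JU replicate 1. Each point is a gene, filled where adjusted p is under 0.05, and bars are list medians. The receptor list has the highest median in vehicle against sham (1.16) and the lowest in JA (-0.83) and UA (-0.98), and the kinase medians lie near 0.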

How the data were processed

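The 10 genes, the pathway and marker lists and the naming rule were chosen with earlier results of these data known. Per the labels' protocols, a mirVana kit was used for extraction and TruSeq Stranded mRNA for the libraries. Groups and replicate numbers come from the sample titles. The deposited table holds whole-number read counts per gene, not normalized, and FPKM values that the authors computed, per the file headers. Trimmomatic, HISAT2, Cufflinks, DESeq, GRCm38 and mm10 are named, per the submitters' processing notes. How reads were counted, with which strand setting, annotation and versions, is not given in the sources used here. 1 value column matched no sample and was not used, and 0 rows named no gene.

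Counts were tested in R 4.3.3 with edgeR 4.0.16 (quasi-likelihood test, filterByExpr, TMM, robust), in 1 fit of all 15 libraries with 10 residual degrees of freedom and a biological coefficient of variation of 27.1%. Adjusted p-values are Benjamini-Hochberg values over all 15125 genes tested, with a threshold of 0.05. The 6 comparisons were vehicle against sham, JA, UA and JU each against vehicle, and JU against JA and UA. Standard errors are the fold change over the square root of F. Alternatives were DESeq2 1.42.0, limma 3.58.1 (voom), no filter on low counts, only the groups compared, a replicate block, GC correction and each library left out. 2 alternatives were added after seeing the data, the GC correction without JU replicate 1, and JU replicate 1 and JA replicate 1 both left out. The procedure was tested on simulated data. Coordinates and GC content come from GENCODE (GRCm38), which matched 18523 genes (97.8%). The naming rule took all 10 genes, the 2 nearest profiles per gene (the nearer is printed) and up to 4 genes of smallest p per pathway list and comparison, each with a mean of at least 1 CPM. Floors cover counting error only.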

Additional observations from a re-analysis of the deposited data

How the results depend on the processing

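The fold changes of the 10 genes kept their direction in vehicle against sham and in UA against vehicle under all alternatives run, and in JA against vehicle except for Nfkbia without vehicle replicate 2, where leave-one-out values ran from -0.57 to 0.10. The number of the 10 called in vehicle against sham was 0 in the main analysis. It was 5 with DESeq2, where 7.19% of all genes were higher. With GC correction and JU replicate 1 left out it was 9, where 15.4% were higher. Over single omissions it was 0 to 10, with 10 without JU replicate 1, where 17% were higher. It was also 9 with only the 2 groups compared, 10 with JU replicate 1 and JA replicate 1 left out, and 4 without JU replicate 2. Shares of all genes under the settings of that sentence are not given here. In JA the number called was 0 with GC correction and JU replicate 1 left out, where 0.00661% of all genes fell. It was 7 with JU replicate 1 and JA replicate 1 left out, where 14.8% fell. Over single omissions it was 0 to 4, with 4 without JU replicate 1, where 7.76% fell. In UA the number called was 6 with only the 2 groups compared, where 6.85% of all genes fell. It was 5 with GC correction and JU replicate 1 left out, where 7.55% fell. Over single omissions it was 0 to 9, with 9 without JU replicate 1, where 13.4% fell. It was 10 with JU replicate 1 and JA replicate 1 left out, a setting whose share of all genes is not given here. In JU against UA the number called was 0 to 7 over single omissions, with 7 without JU replicate 2, where 11.7% of all genes were higher. Of all genes, 5.02% passed in vehicle against sham in the main analysis and 33.9% without JU replicate 1. A count with no share of all genes, here or above, describes the setting and not the 10 genes.

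For the 60 other pathway genes, the calls in vehicle against sham were 15 with DESeq2, 23 with only the 2 groups compared, 0 with GC correction, 23 with GC correction and JU replicate 1 left out, 35 with JU replicate 1 and JA replicate 1 left out, and 0 to 31 over single omissions, against 2. In JA, against 1, they were 4, 0, 0, 0 and 27 under the same settings, and 0 to 13 over single omissions. In UA, against 1, they were 4, 12, 0, 9 and 29, and 0 to 25 over single omissions. In JU against JA DESeq2 called 3, and in JU against UA 7, with 0 to 20 over single omissions. By DESeq2, 7.83% of all genes passed in JA, 11.6% in UA, 4.42% in JU against JA and 10.8% in JU against UA. Without JU replicate 1, 33.9% of all genes passed in vehicle against sham by edgeR. Counts here with no share of all genes describe the settings and not the 60 genes.

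JU against vehicle was near 0 in the main analysis and changed sign most often. With voom the log2 fold changes were -0.17 for Nfkb1, -0.12 for Nfkb2, -0.049 for Rela, -1.25 for Bcl3, -0.83 for Ikbke, -0.35 for Birc3 and -0.40 for Icam1, and with GC correction -0.0025 for Nfkb1. With the replicate block they were -0.071 for Nfkb1, -0.012 for Rela, -0.24 for Bcl3, -0.081 for Ikbke, -0.16 for Birc3 and -0.17 for Icam1, all with adjusted p of 1. The block called 0 of the 10 in every comparison and 0 of the 60 in JA and in UA, and 2 in vehicle against sham. The replicate numbers pair nothing that the labels state: same-numbered libraries correlated from -0.73 to 0.70 over 30 pairs, 7 of them above 0.1, and 6 of 15 libraries matched best with their own number.

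Leave-one-out values in JU against vehicle ran from -0.76 to 0.33 for Nfkb1, -0.93 to 0.69 for Nfkb2, -0.47 to 0.28 for Rela, -0.41 to 0.13 for Relb, -0.36 to 0.67 for Nfkbia, -0.52 to 0.64 for Tnfaip3, -2.54 to 1.16 for Bcl3, -2.43 to 1.13 for Ikbke, -1.27 to 0.60 for Birc3 and -1.39 to 0.75 for Icam1, with each lowest value without JU replicate 1. In JU against JA they ran from -0.033 to 1.06 for Nfkb1, -0.052 to 0.83 for Nfkbia, -0.22 to 0.94 for Tnfaip3, -0.17 to 4.63 for Bcl3, -0.89 to 3.20 for Ikbke and -0.51 to 1.36 for Birc3. In JU against UA they ran from -0.24 to 3.48 for Bcl3, -0.32 to 3.23 for Ikbke and -0.17 to 1.69 for Birc3. Each lowest value was again without JU replicate 1. The cause was not tested. Depth limits Bcl3 most, with 2 counts in JA replicate 2 and in JU replicate 2.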
